A study of Rattus norvegicus with 48 samples.

Results

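The caspases are a family of cysteine proteases, and 6 of them were chosen for description here: *Casp1* and *Casp4* of the inflammatory branch and *Casp2*, *Casp6*, *Casp8* and *Casp9* of the apoptotic branch. The set was chosen by the measured fall of *Casp1* after 1 day of fasting against fed rats, and the question was whether the other caspases of the same cells followed it. Of the 6 genes, 5 could be paired with a gene identifier of the count files and were tested among 13050 features that had at least 1 read in every sample. *Casp6* could not be paired and was not analysed here.

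RNA was sequenced from cerebral endothelial cells (CECs), the cells that line the capillaries of the brain and form the blood-brain barrier. Male Wistar-Han rats were fed *ad libitum* (AL, the control group) or had no food for 1 day (F1), 2 days (F2) or 3 days (F3), with free access to water in all 4 groups. There was no genetic modification, and no drug was part of the comparison. Before the cells were isolated, rats of all 4 groups were anesthetized with diazepam and ketamine and perfused with buffer that held heparin. Each sample was a pool of cortices from several rats, from which cells that carry CD11b were first removed and cells that carry CD31 were then retained on magnetic columns. Each group had 3 samples, named i, j and k, and each sample had 4 technical replicates that were summed, so that n = 3 in every group. A pool of rats gives no spread between single animals, and the age of the animals was not given in the sources used here. As these were bulk samples, fewer cells of a type and less RNA per cell cannot be told apart.

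Caspases are made as inactive precursors that are switched on when adaptor proteins bring them together. Caspase-1 is assembled on inflammasomes, where it matures interleukin-1β and interleukin-18 and cuts gasdermin D, and caspase-4, which corresponds to the mouse gene long called caspase-11, senses intracellular lipopolysaccharide. On the apoptotic side caspase-8 is recruited by death receptors, caspase-9 by the apoptosome around Apaf1 after cytochrome c release, and caspase-2 by the PIDDosome. Caspase-6 is one of the enzymes that then cleave cell proteins. In the vessel wall inflammatory caspases are known for the response of the endothelium to bacterial products.

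*Casp1* lies next to its closest relatives in the rat genome. In the RefSeq annotation of the GRCr8 assembly, *Casp1*, *Casp4* and *Casp12* are the only protein-coding genes of their stretch of chromosome 8, in that order, with long non-coding RNA genes between them. The sequences upstream of the gene starts are shown for *Casp1*, for its neighbour *Casp12*, and for *Casp2* and *Casp9* as genes of the apoptotic branch. They come from RefSeq in the GRCr8 assembly, which is not the assembly on which the reads were counted, and each is the 120 bases before the gene start on the plus strand, at chr8:10872710-10872829 for *Casp1*, chr8:10927068-10927187 for *Casp12*, chr4:72116237-72116356 for *Casp2* and chr5:159391954-159392073 for *Casp9*. Capitals mark 2 motifs, searched on both strands over 300 bases from 250 before to 50 after the start: GAAANNGAAA, the core of an interferon-stimulated response element (TTTCNNTTTC on the other strand), and GGGCGG, a GC box (CCGCCC on the other strand).
Casp1: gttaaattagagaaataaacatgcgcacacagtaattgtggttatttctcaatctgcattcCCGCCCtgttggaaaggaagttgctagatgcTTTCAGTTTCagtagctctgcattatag
Casp12: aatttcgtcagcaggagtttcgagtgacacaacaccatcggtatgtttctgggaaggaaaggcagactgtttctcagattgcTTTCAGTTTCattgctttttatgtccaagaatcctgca
Casp2: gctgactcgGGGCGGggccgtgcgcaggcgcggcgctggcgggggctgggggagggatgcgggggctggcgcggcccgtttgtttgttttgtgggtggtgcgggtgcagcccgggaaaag
Casp9: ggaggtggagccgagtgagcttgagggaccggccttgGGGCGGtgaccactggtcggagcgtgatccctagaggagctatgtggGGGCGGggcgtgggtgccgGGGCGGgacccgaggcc
*Casp1* and *Casp12* each held the same 10 letters, TTTCAGTTTC, once, at positions -28 to -19 and -38 to -29 counted from the start, and neither *Casp2* nor *Casp9* held the GAAANNGAAA motif. This motif occurred in 3.92% of the 33469 rat promoters of this length. GGGCGG occurred once in *Casp1* and in *Casp2* and 3 times in *Casp9*, against 33.1% of all promoters with at least 1 match. CG dinucleotides numbered 4 in the *Casp1* window and 3 in that of *Casp12*, below the median of 7 over all promoters, and 27 and 24 in those of *Casp2* and *Casp9*. The matches are letters in a window and no binding was measured. *Casp4* and *Casp8* are named only.

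The samples held between 20718644 and 25960874 reads assigned to genes. Values are given below as normalised read counts, that is counts divided by the effective library size of the sample (trimmed mean of M values, TMM) and brought back to the mean depth, and they compare a gene between samples but not 1 gene with another. Among technical replicates the chi-square divided by its degrees of freedom was 1.00 to 1.02, a small excess over counting noise that had a p under 0.05 in 10 of 12 samples. Between samples of a group this ratio ran from 9.75 to 24.8 in 10 pairs, but sample j of F2 stood apart from the other F2 samples with ratios of 48.8 and 51.5. The LFCs of *Casp1* and *Casp2* in comparisons with F2 are given with and without it, those of most other genes only with it. In F1 sample k, the labels of 1 technical replicate (d) name both 1 and 2 days of fasting. It was kept with F1 as its title says, and it made no difference to the calls of the 5 caspases when left out. Of the calls described below, that of *Card19* at day 1 was lost without it. In RefSeq, *Casp1*, *Casp2*, *Casp8* and *Casp9* each overlap 1 other annotated gene, which for *Casp8* is *Cflar* and for *Casp9* is *Cela2a*, and the strand setting of the counting was not given in the sources used here, so that reads of such partners cannot be told apart.

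The endothelial identity held for the markers that could be paired (4 of 11 listed): *Pecam1*, which encodes CD31, had 31655 to 38792 normalised reads in every sample, although it was itself the gene used for sorting. The 6 of 12 listed microglial markers that could be paired, cells in which *Casp1* is also abundant, summed to only 61.7 to 96.7 normalised reads in AL, 56.7 to 82.3 in F1, 67.2 to 120 in F2 and 57.6 to 134 in F3, with none at 0. Pericyte and smooth muscle markers (3 of 10) summed to 1908 to 4372 in AL, 2066 to 2365 in F1, 2451 to 4744 in F2 and 1689 to 4443 in F3, the single leukocyte marker paired (*Ccl5*) lay between 50.8 and 166, the single red cell marker between 36.1 and 110 and the single astrocyte marker between 1530 and 2277. No perivascular macrophage, neuron or oligodendrocyte marker could be paired. The endothelial sum, most of it from the glucose transporter gene *Slc2a1*, was itself higher in every fasted sample (492128 to 553905) than in AL (388654 to 438725). Of the paired microglial, mural, leukocyte and red cell markers edgeR called 0 in any comparison, against 0% to 12% of all features. At most 1 of a list had an unadjusted p under 0.05. Of all features 4.44% to 26.0% did in the comparisons other than F3 vs F2. DESeq2 also called 0, but gave no adjusted p for 2 to 6 of the 6 microglial markers. With only 1 to 6 genes in a list, 0 calls cannot show that these cells were unchanged. The astrocyte marker *Aldoc* was lower in all F3 samples (1545 to 1588) than in AL (1825 to 2155, as for 18.0% of all features) and F1 (1702 to 2277), beside the lower *Casp1* of F3 (LFC of *Aldoc* against AL -0.34, SE 0.13, unadjusted p = 0.0202, adjusted p = 0.111, edgeR). Its part in the result was not tested. With the summed microglial or mural markers as a covariate, the LFC of *Casp1* kept its direction in the 3 comparisons with AL, in F2 vs F1 and in F3 vs F2, the comparisons for which this was run. The microglial sums averaged 74.2 in AL and 72.7 in F1, so that this covariate had little to adjust at day 1. All of these comparisons but F3 vs F2 share samples with the choice of *Casp1*. The part of other cells in the result was not tested.

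Of the 5 caspases and *Casp12*, *Casp1* had the lowest fold change against AL on each day. In AL its normalised count was 843, 764 and 967 in samples i, j and k (858 ± 102, mean ± SD, n = 3). In F1 it was 495, 483 and 516 (498 ± 16.7), in F2 581, 794 and 621 (665 ± 113), and in F3 424, 506 and 486 (472 ± 42.7). Every F1 and F3 sample was below every AL sample, as was the case for 14.1% and 18.0% of all features, whereas the F2 samples lay between, 1 of them (sample j) inside the AL range. These counts rest on 457 to 916 reads per sample, for which counting error alone is 3.3% to 4.68%, against coefficients of variation within groups of 3.35% (F1) to 16.9% (F2).

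The Log2 fold change (LFC) of *Casp1* against AL was -0.78 (SE 0.12) at day 1, -0.37 (SE 0.12) at day 2 and -0.86 (SE 0.12) at day 3, which correspond to changes of -41.9%, -22.4% and -45.0%. The day 1 contrast is the one by which the gene was chosen, and the other 2 share its AL samples, so that they describe the choice and carry no test here. In rank, 2.34% of the features tested had a lower LFC than *Casp1* at day 1, 7.01% at day 2 and 1.93% at day 3. Without F2 sample j the day 2 LFC was -0.51. The levels were thus ordered AL, F2, F1 and F3 from high to low, and the neighbours F1 and F3 differed by an LFC of -0.08 (95% confidence interval -0.34 to 0.18).

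**Figure D1:**
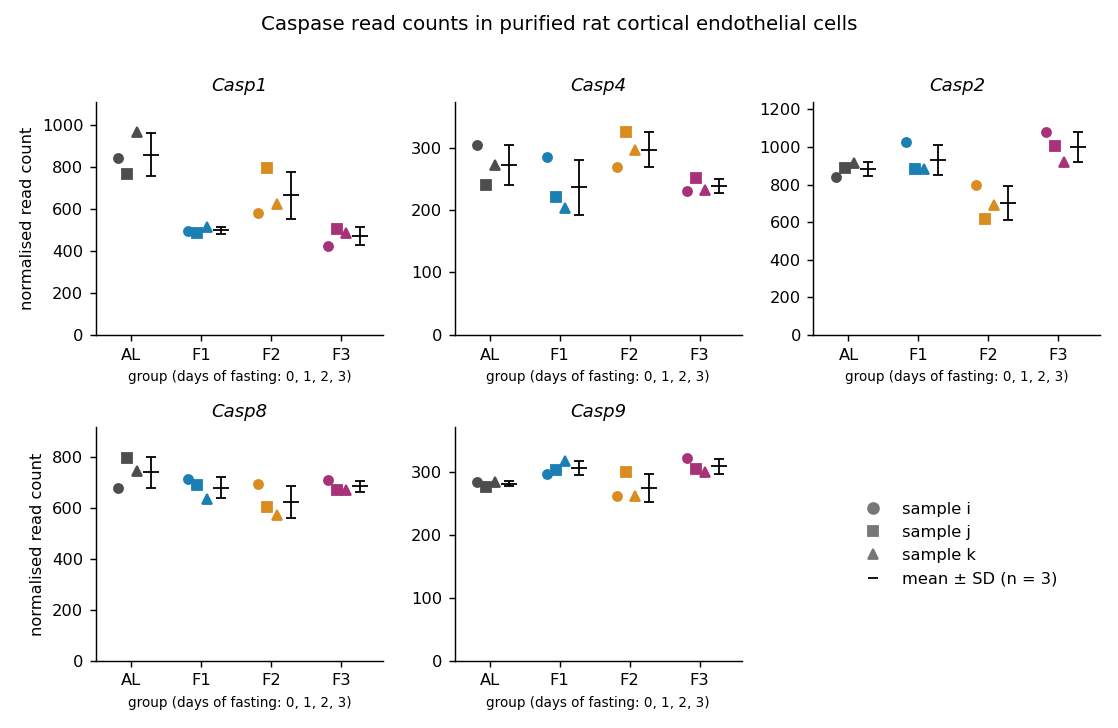
Normalised read counts of the 5 measured caspases (y axis, reads per sample at the mean depth, starting at 0) in the 4 groups (x axis). Circles, squares and triangles are samples i, j and k, and black bars give the mean ± SD of 3 samples. *Casp1* is lower in all F1 (483 to 516) and F3 (424 to 506) samples than in AL (764 to 967), and *Casp2* is lowest in F2 (617 to 796). The other 3 passed the threshold in no comparison (edgeR).

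The step from day 2 to day 3 compares neither AL nor F1 samples and was tested, although in the model of all 12 samples they enter the estimate of the spread. A fit of only the 6 samples compared, which leaves them out, called neither *Casp1* (LFC -0.49, adjusted p = 0.0921) nor *Casp2* (LFC 0.52, adjusted p = 0.0535, edgeR). In the model of all samples *Casp1* fell again between F2 and F3, with an LFC of -0.50 (SE 0.12, adjusted p = 0.0302, edgeR quasi-likelihood test, Benjamini-Hochberg over all features), and all 3 F3 samples were below all 3 F2 samples, as for 12.1% of all features. The call depended on the samples: leaving out F2 sample j brought the LFC to -0.35 (adjusted p = 0.0722, edgeR), and leaving out F3 sample i, j or k gave adjusted p = 0.141, 0.0502 and 0.0767 (edgeR). The rise from F1 to F2 (LFC 0.42, SE 0.12, every F2 sample above every F1 sample, as for 9.75% of all features) shares F1 with the choice and is given as a description. Without F2 sample j the LFC of this rise was 0.27.

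None of the other 4 caspases followed *Casp1* past the threshold at day 1. Of the 5 tested, 1 was past an adjusted p of 0.05 in F1 vs AL, *Casp1* itself, against 6.56% of all features (2.69% lower), and since the rule used this contrast nothing is read from that count. Among the other 4, edgeR called 0, 0 had an unadjusted p under 0.05 (20.6% of all features did), and DESeq2 also called 0. Their LFCs had 95% confidence intervals from -0.14 to 0.29 for *Casp2*, -0.50 to 0.09 for *Casp4*, -0.32 to 0.07 for *Casp8* and -0.08 to 0.32 for *Casp9*. The difference in LFC between genes was not itself tested. The median LFC of all features lay between -0.00848 and -0.00168 in every comparison.

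*Casp4*, the other inflammatory caspase and the neighbour of *Casp1*, had lower means in F1 and F3 that did not pass the test. Its normalised counts were 305, 240 and 272 in AL, 286, 221 and 203 in F1, 270, 325 and 296 in F2, and 231, 252 and 232 in F3. The groups overlapped in each comparison with AL, and the LFCs were -0.20 (SE 0.14, adjusted p = 0.444), 0.12 (SE 0.14, adjusted p = 0.748) and -0.19 (SE 0.14, adjusted p = 0.421) at days 1, 2 and 3 (edgeR). From F2 to F3 all samples were lower, as for 12.1% of all features (LFC -0.32, SE 0.14). This was the direction in which *Casp1* moved, with an adjusted p = 0.191 (edgeR) that did not pass. Without F2 sample j the LFC of *Casp4* was -0.25 (adjusted p = 0.393, edgeR). From F1 to F2 it was higher, again the direction of *Casp1*, but the samples overlapped and it did not pass (LFC 0.33, SE 0.14, adjusted p = 0.236, edgeR). With 200 to 331 reads per sample its counting error, 5.5% to 7.07%, was larger than that of *Casp1*.

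*Casp12*, the third gene of the cluster, gave LFCs of -0.32 (SE 0.16, adjusted p = 0.291), -0.10 (SE 0.16, adjusted p = 0.844) and -0.24 (SE 0.16, adjusted p = 0.377) at days 1, 2 and 3 (edgeR). It ranged from 128 to 182 normalised reads in AL and from 107 to 132 in F1, which overlap. By edgeR and by DESeq2 it passed in 0 comparisons, and at an unadjusted p under 0.05 also in 0. Reads with more than 1 match in the genome were removed before counting, so that the counts of these related genes hold only reads with a single place. The Log2 ratio of *Casp1* to *Casp4* within a sample averaged 1.66 ± 0.18 in AL, 1.09 ± 0.28 in F1, 1.16 ± 0.12 in F2 and 0.98 ± 0.10 in F3 (SD, n = 3). That ratio uses the contrast of the choice, is given as a description and was not tested.

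*Casp2*, the initiator of the PIDDosome, had a different course, lowest at day 2 and highest at day 3. Its normalised counts were 842, 887 and 917 in AL (882 ± 37.6), 1024, 883 and 883 in F1 (930 ± 81.6), 796, 617 and 694 in F2 (702 ± 89.6), and 1079, 1003 and 920 in F3 (1001 ± 79.5, n = 3 each). Every F2 sample was below, and every F3 sample above, every AL sample, as for 8.66% and 17.6% of all features, and F1 overlapped AL and F3. Against AL none of these differences passed the test, with LFCs of 0.08 (SE 0.10, adjusted p = 0.716), -0.33 (SE 0.10, adjusted p = 0.167) and 0.18 (SE 0.10, adjusted p = 0.269) at days 1, 2 and 3 (edgeR). Without F2 sample j the day 2 LFC of *Casp2* was -0.24 (adjusted p = 0.259, edgeR).

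In the same model *Casp2* rose from F2 to F3, with an LFC of 0.51 (SE 0.10, 42.6% more reads, adjusted p = 0.0118, edgeR) and all 3 F3 samples above all 3 F2 samples, as for 14.7% of all features. Without F2 sample j the LFC was 0.43 and still past the threshold (adjusted p = 0.0236, edgeR), and without F3 sample i it was 0.45 with adjusted p = 0.0690 (edgeR). From F1 to F2 all samples were lower, as for 12% of all features (LFC -0.41, SE 0.10, adjusted p = 0.0607, edgeR). This difference passed in 3 of 24 alternatives: with DESeq2 (adjusted p = 0.0171), with no filter (adjusted p = 0.0479, edgeR) and without F2 sample i (adjusted p = 0.0416, edgeR). Without F2 sample j the LFC was -0.32 (adjusted p = 0.103, edgeR). In the joint test of the 4 groups *Casp2* passed with adjusted p = 0.0199 (edgeR). Between F2 and F3, 2 of the 5 caspases were thus past the threshold, *Casp1* lower and *Casp2* higher, against 5.94% of all features (2.32% lower and 3.62% higher). The joint test called 10.1% of all features and, of the 4 caspases other than *Casp1*, 1 (*Casp2*); it holds the samples by which *Casp1* was chosen, so that no call of *Casp1* is read from it.

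*Casp8*, which death receptors activate, was measured with 570 to 795 reads per sample and stayed between 571 and 798 normalised reads. The group means were 740 ± 60.3 in AL, 680 ± 41.3 in F1, 624 ± 64.4 in F2 and 685 ± 22.6 in F3 (SD, n = 3), and the samples of every pair of groups overlapped. Its LFC was -0.12 (SE 0.09, adjusted p = 0.496) at day 1, -0.25 (SE 0.09, adjusted p = 0.266) at day 2 and -0.11 (SE 0.09, adjusted p = 0.495) at day 3, with 95% confidence intervals of -0.32 to 0.07, -0.44 to -0.05 and -0.31 to 0.08 (edgeR).

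*Casp9*, the caspase of the apoptosome, was the steadiest of the 5 in AL, with 283, 276 and 283 normalised reads, a coefficient of variation of 1.54% that is below its counting error of 5.37% to 6.26%. It counted 296, 303 and 317 in F1, 262, 300 and 262 in F2, and 322, 304 and 300 in F3. Every F1 and every F3 sample was above every AL sample, but by small amounts that did not pass the test (LFC 0.12, SE 0.09, adjusted p = 0.508 and LFC 0.14, SE 0.09, adjusted p = 0.390, edgeR), and all F1 samples were above AL for 14.6% of all features, all F3 samples for 17.6%. In F2 the LFC was -0.03 (SE 0.09, adjusted p = 0.915, edgeR). In the joint test *Casp4*, *Casp8* and *Casp9* gave adjusted p = 0.273, 0.314 and 0.440 (edgeR).

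At day 2 none of the 5 caspases was past the threshold against AL by edgeR or by DESeq2, against 0.858% of all features. Of the 4 other than *Casp1*, 2 (*Casp2* and *Casp8*) had an unadjusted p under 0.05, both lower, against 12.8% of all features. At day 3 the contrast again shares the AL samples of the choice, so that nothing is read from the 1 of 5 past the threshold (*Casp1*), beside 12% of all features (5.77% lower). Of the other 4, edgeR and DESeq2 called 0, and 0 had an unadjusted p under 0.05 (26.0% of all features). Between F1 and F2 edgeR called 0 of 5, against 1.43% of all features. DESeq2 called 2, *Casp1* and *Casp2*, beside 616 of the 13050 features. As this contrast shares the F1 samples of the choice, nothing is read from the call of *Casp1*. Of the 4 other than *Casp1*, 2 (*Casp2*, lower in F2, and *Casp4*, higher in F2) had an unadjusted p under 0.05 there, against 17.3% of all features. Between F1 and F3 edgeR and DESeq2 called 0 of 5, none had an unadjusted p under 0.05, and edgeR called 0% of all features, with 4.44% at an unadjusted p under 0.05 and 24 features called by DESeq2.

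**Figure D2:**
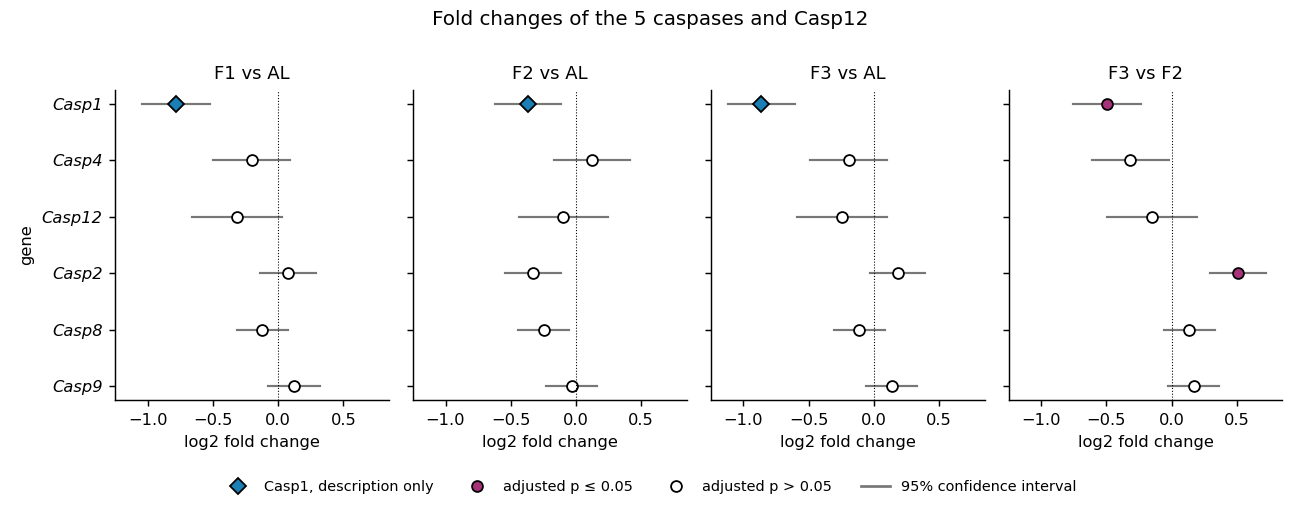
LFC (x axis, log2 scale) of the 5 caspases and *Casp12* (rows) in 4 comparisons (panels), with 95% confidence intervals from the edgeR model as bars. Blue diamonds mark *Casp1* where the contrast shares samples with its choice and carries no test, filled circles mark genes past an adjusted p of 0.05 and open circles the others. *Casp1* lies at -0.78 and -0.86 against AL at days 1 and 3, and only *Casp1* (-0.50) and *Casp2* (0.51) are filled in F3 vs F2.

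Genes around the caspases were taken from 10 lists with 74 names, of which 19 could be paired and tested besides the caspases. None of the listed inflammasome sensors and adaptors (0 of 11), substrates such as the interleukins (0 of 5), interleukin-1 receptors, guanylate-binding proteins or PIDDosome genes could be paired. The set of symbols used here was partial, so that the partners of *Casp1* were not analysed here. In F1 vs AL 2 of the 19 passed, 1 higher and 1 lower, against 6.56% of all features. In F2 vs AL 0 passed by edgeR, against 0.858% of all features, and 0 by DESeq2, with 1 at an unadjusted p under 0.05, against 12.8%. In F3 vs AL 3 passed, 2 higher and 1 lower, against 12%, and in F3 vs F2 2 passed, 1 higher and 1 lower, against 5.94%. In F2 vs F1 edgeR called 0 (1.43% of all features) and DESeq2 1, and 4 of the 19 had an unadjusted p under 0.05, against 17.3% of all features. In F3 vs F1 both called 0 (0% of all features by edgeR), and 0 had an unadjusted p under 0.05, against 4.44%. DESeq2 gave no adjusted p for 2 of the 19 in any comparison. The median LFC over the 19 genes was -0.02, -0.05 and -0.04 at days 1, 2 and 3. Over all features it was -0.0043, -0.0085 and -0.0053.

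*Apaf1*, the scaffold on which caspase-9 is activated, was, like *Casp1*, lower on days 1 and 3 and nearer to AL on day 2. Its normalised counts were 1320, 1268 and 1250 in AL, 989, 930 and 1072 in F1, 1248, 1046 and 1324 in F2, and 856, 962 and 847 in F3. It fell at day 1 (LFC -0.36, SE 0.09, adjusted p = 0.0329) and at day 3 (LFC -0.53, SE 0.09, adjusted p = 0.00231, edgeR). On both days all samples were below AL, as for 14.1% and 18.0% of all features. It did not pass at day 2 (LFC -0.09, SE 0.09, adjusted p = 0.739), and fell from F2 to F3 (LFC -0.44, SE 0.09, adjusted p = 0.0154, edgeR). The day 3 call held in all 24 alternatives (adjusted p up to 0.0165, edgeR). The day 1 call was lost without AL sample i, j or k or F1 sample i or j, with adjusted p up to 0.152, and with the mural covariate (LFC -0.34, adjusted p = 0.0558, edgeR), and the F2 to F3 call without F3 sample i or k (adjusted p = 0.0784 and 0.0666) and with only the 6 samples compared (0.0751, edgeR).

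*Bid*, which caspase-8 cuts to link death receptors to mitochondria, was higher in F3 than in AL. It was a gene of low count, with 38.6, 60.2 and 53.3 normalised reads in AL, 65.0, 82.0 and 59.8 in F1, 61.1, 53.5 and 57.1 in F2, and 93.7, 77.6 and 75.5 in F3. The LFC at day 3 was 0.70 (SE 0.20, adjusted p = 0.0362, edgeR), and the call was lost without AL sample i or k or any 1 of the F3 samples (adjusted p from 0.0620 to 0.150), with microglial markers as a covariate (LFC 0.67, adjusted p = 0.0819) and with only the 6 samples compared (0.0507, edgeR). The other genes of the mitochondrial arm, *Bax* and *Bak1*, which open the outer membrane, and *Aifm1*, passed in no comparison.

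CARD proteins share the interaction domain by which caspases 1, 2, 4 and 9 are recruited. *Card19* was higher at day 1 (LFC 0.38, SE 0.10, adjusted p = 0.0451) and at day 3 (LFC 0.38, SE 0.10, adjusted p = 0.0292, edgeR), with 409, 471 and 430 normalised reads in AL, 548, 566 and 589 in F1, 436, 516 and 430 in F2, and 644, 517 and 541 in F3. The day 1 call held in only 11 of 24 alternatives and was lost, among others, with total counts (adjusted p = 0.0841) and without AL sample i or k, any 1 of the F1 samples, F2 sample i or F3 sample k (adjusted p from 0.0531 to 0.159, edgeR). It was also lost without technical replicate d of F1 sample k, whose labels conflict (LFC 0.35, adjusted p = 0.0545, edgeR). The day 3 call was lost without AL sample i or k or F3 sample i or k (adjusted p from 0.0538 to 0.153), with total counts (0.0540) and with the microglial covariate (LFC 0.34, adjusted p = 0.0789, edgeR). *Card6* rose from F2 to F3 (LFC 0.61, SE 0.14, adjusted p = 0.0261, edgeR), from 838, 629 and 970 to 1255, 1352 and 1114 normalised reads. All F3 samples were above all F2 samples, as for 14.7% of all features, and AL (976, 889 and 1183) overlapped both. That call was lost without F2 sample i or F3 sample i or j (adjusted p = 0.0511, 0.0945 and 0.0803) and with only the 6 samples compared (0.0728, edgeR). *Card9*, *Card10* and *Bcl10* passed in no comparison.

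**Figure D3:**
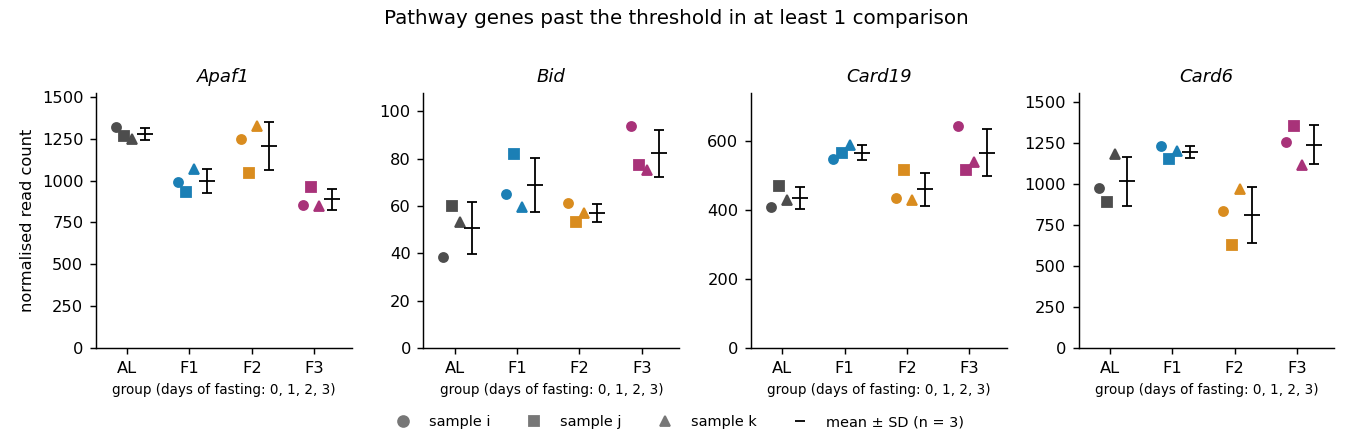
Normalised read counts (y axis, starting at 0) of the 4 pathway genes past the threshold in at least 1 comparison, by group (x axis). Symbols are samples i, j and k and black bars the mean ± SD of 3 samples. *Apaf1* is lower in all F1 and F3 samples than in AL, as were 14.1% and 18.0% of all features. The F3 samples of *Bid* (75.5 to 93.7) lie above those of AL (38.6 to 60.2), as for 17.6% of all features.

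The 7 caspase inhibitors and survival genes that could be paired gave 0 calls in any comparison by edgeR, against 0% to 12% of all features, with 0 at an unadjusted p under 0.05, against 4.44% to 26.0% in the comparisons other than F3 vs F2. DESeq2 called 0 of the 6 for which it gave an adjusted p. They were *Birc2*, *Birc3*, *Birc5*, *Birc6*, *Aven*, *Caap1* and *Api5*, of which the Birc genes encode inhibitor of apoptosis proteins. *Birc6*, a large ubiquitin ligase and the most abundant of them by count, had 3638 to 4450 normalised reads in 11 samples and 1497 in F2 sample j, the sample that stands apart, so that its F2 mean of 3434 ± 1678 (SD, n = 3) rests on that sample. *Api5*, next to it by count, stayed between 2148 and 2487. *Casp8ap2*, the only gene of the death receptor list that could be paired, had an LFC of -0.10 (SE 0.12), -0.06 (SE 0.12) and -0.06 (SE 0.12) at days 1, 2 and 3. *Acin1*, a nuclear protein that caspases cut, had higher counts in all F1 and F3 samples than in AL, as for 14.6% and 17.6% of all features. The differences (LFC 0.23, SE 0.08, adjusted p = 0.0923 and LFC 0.24, SE 0.08, adjusted p = 0.0629, edgeR) did not pass with edgeR and did with DESeq2.

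**Figure D4:**
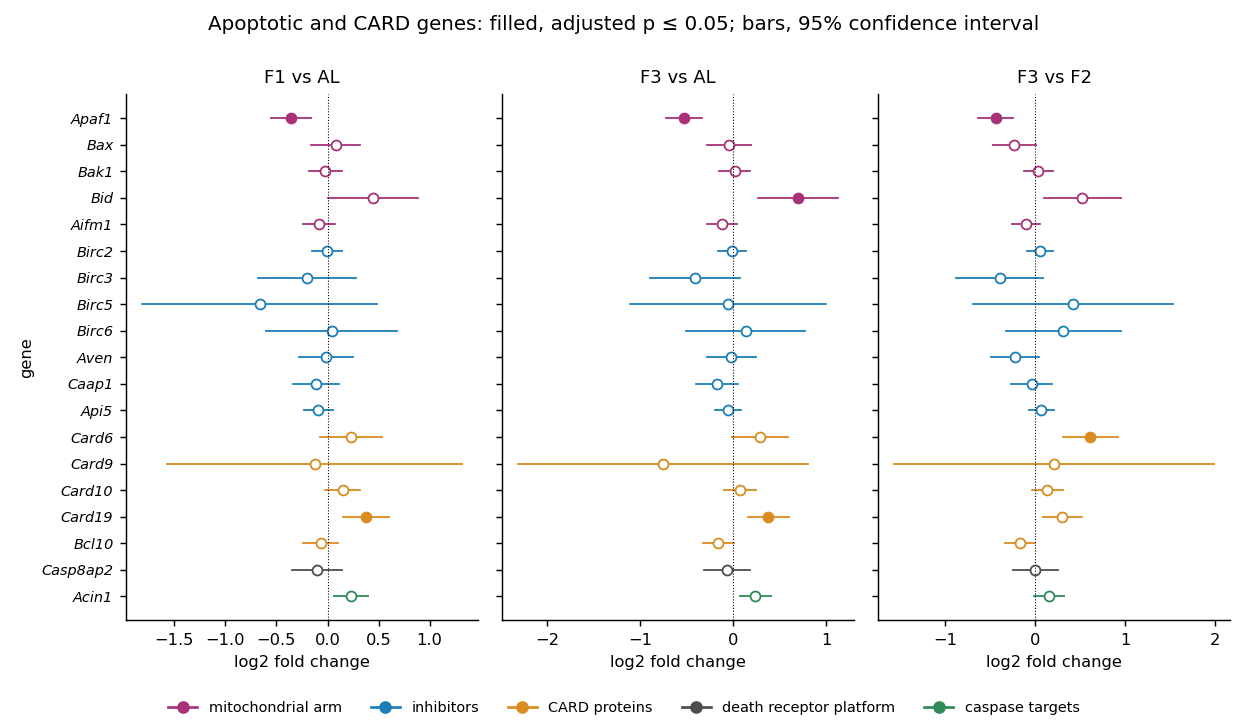
LFC (x axis, log2 scale, a separate scale in each panel) of the 19 tested pathway genes (rows, coloured by list) in 3 comparisons, with 95% confidence intervals as bars and filled circles for an adjusted p of at most 0.05 (edgeR). *Apaf1* (-0.36 and -0.53) is filled on the lower side against AL, *Card19* (0.38 at both days) and *Bid* (0.70, day 3) on the higher side. The widest intervals belong to *Card9* and *Birc5*, whose highest samples held 6.10 and 8.03 normalised reads.

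Among 1263 genes with a symbol and a mean of at least 100 normalised reads, those whose depth-scaled Log2 counts tracked *Casp1* most closely over the 12 samples were *Ammecr1l* (Pearson r = 0.941), *Anp32a* (0.939), *Acad11* (0.937), *Afap1l2* (0.934) and *Atp5j* (0.933). *Acad11* encodes an acyl-CoA dehydrogenase and *Atp5j* a subunit of the mitochondrial ATP synthase. Their LFCs were smaller than those of *Casp1*, from -0.56 (*Afap1l2*) to -0.19 (*Atp5j*) at day 1 and from -0.82 to -0.27 for the same 2 genes at day 3. The closest gene was *Slc25a46* for *Casp2* (0.926), *Apex2* for *Casp4* (0.960), *Caskin2* for *Casp8* (0.866) and *Aktip* for *Casp9* (0.904), none of them a caspase. The 12 samples share their group structure, each of these genes was the highest of all those searched, and r is given as a description only. Features without a symbol here were not searched. Among the caspases, r with *Casp1* was 0.59 for *Casp4*, 0.53 for *Casp12*, 0.11 for *Casp8*, -0.49 for *Casp2* and -0.51 for *Casp9*. These values share samples with the choice of *Casp1* and were not tested.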

How the data were processed

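The deposited values are whole-number read counts per gene for 48 technical replicates of 12 samples. Per the labels and the study's methods, the authors made stranded polyA+ libraries, aligned the reads with STAR to the rat genome (Rnor_6.0), dropped every read with more than 1 match, and summed exon reads by gene in HTSeq 0.5.3. Nothing was normalized. Whether HTSeq used strand was not given in the sources used here.

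Counts were added up over the 4 technical replicates, and sample titles gave the group. Features read in all 12 samples (13050 of 32624) entered edgeR 4.0.16 (R 4.3.3), where TMM factors were set and quasi-likelihood tests were made on a single model of 4 group means, with adjustment by Benjamini-Hochberg over all features and a threshold of 0.05. The model was tested on simulated data. P-values measure the spread between pools of rats. Depth was 20718644 to 25960874 assigned reads per sample, and counting errors cover sampling of reads only. Alternatives were DESeq2 1.42.0 and its size factors, total counts, upper-quartile scaling, other filters on low counts, only the 6 samples compared, a letter block, marker covariates, a threshold of 0.01, and each sample left out. Symbols were given to 2043 of the tested features by a partial copy of the study's supplementary tables, and the authors' own fold changes and p-values in them were not used. A gene that could not be paired may still have been measured. The genes with a symbol need not be a fair sample of all features tested.

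The caspases and the gene lists were chosen with earlier results of these data known. Named genes were the 6 caspases, the other caspases measured where reported, every list gene past the threshold in any comparison (otherwise at most 2 of a list, by mean count), the 5 genes most correlated with *Casp1* and the single best for each other caspase. Certain genes that the rule covers are not reported here and were left out of the list counts. Promoter sequences and gene order came from RefSeq (GRCr8), and no coordinates were carried between assemblies.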

Additional observations from a re-analysis of the deposited data

Results flagged for a closer look

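For 4 genes the effect of fasting against AL differed between day 2 and day 3 by the direct test of F3 against F2 (edgeR, adjusted over all features), which is why they are listed. *Casp1* was lower in F3 than in F2 (LFC -0.50, adjusted p = 0.0302, edgeR, 3 of 3 samples lower) and *Apaf1* likewise (LFC -0.44, adjusted p = 0.0154, edgeR, 3 of 3 lower). *Casp2* was higher (LFC 0.51, adjusted p = 0.0118, edgeR, 3 of 3 samples higher), as was *Card6* (LFC 0.61, adjusted p = 0.0261, edgeR, 3 of 3 higher). Of all features, 12.1% had every F3 sample below every F2 sample and 14.7% had every F3 sample above. Without F2 sample j, which stands apart from the other F2 samples, the LFC of *Casp1* was -0.35 (adjusted p = 0.0722) and that of *Casp2* 0.43 (adjusted p = 0.0236, edgeR). The calls of *Apaf1* and *Card6* were kept without that sample. With AL and F1 left out of the fit, all 4 calls were lost (adjusted p = 0.0921, 0.0751, 0.0535 and 0.0728 for *Casp1*, *Apaf1*, *Casp2* and *Card6*, edgeR). Groups of 3 samples are too small for a test of single samples that lie far from the rest.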

How the results depend on the processing

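The LFC of *Casp1* against AL, a description of the choice, ran from -0.87 to -0.69 at day 1 and from -0.95 to -0.77 at day 3 over 24 alternatives, in which none of the other 4 caspases was called on these days. Leaving out 1 sample gave 0 to 1 caspase called in F2 vs AL (main 0, 1 without F2 sample j), 0 to 1 in F2 vs F1 (main 0, 1 without F2 sample i), 0 to 2 in F3 vs F2 (main 2), 1 to 2 in the joint test (main 2, 1 without F2 sample k or F3 sample i) and 2 to 5 pathway genes (main 4, 2 without AL sample i or k or any 1 of the F3 samples). In F2 vs F1, DESeq2 called 2, no filter 1 and the mural covariate 1. The call in F2 vs AL without F2 sample j, and that in F2 vs F1 with the mural covariate, were *Casp1*. Calls of *Casp1* in comparisons other than F3 vs F2, and in the joint test, share samples with its choice. They are part of these counts, but nothing is read from them. In F3 vs F2, only the 6 samples compared gave 0 and an adjusted p of at most 0.01 gave 0; at 0.01 the joint test gave 1 caspase and the pathway 1 gene, and the microglial covariate gave 2 pathway genes. The causes were not tested. The LFCs that changed sign were all near 0 and not called: *Casp9* F2 vs AL (-0.10 to 0.00027 when 1 sample was left out) and *Casp12* F2 vs AL (-0.21 to 0.042).

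Over all features, edgeR called 112 in F2 vs AL, DESeq2 359 and the fit of only the 6 samples 0, and without F2 sample j the calls rose from 856 to 1451 in F1 vs AL and from 1572 to 2366 in F3 vs AL. With total counts 38.7% of the F1 vs AL calls were higher, against 59.0% with TMM, 41.0% against 52.1% in F3 vs AL and 46.0% against 57.1% in F2 vs AL, where upper-quartile scaling gave 67.4%. Deviations from the group means correlated weakly between samples with the same letter (-0.02 to 0.14, median 0.029, 3 of 18 pairs above 0.1). Between samples with different letters the correlations were -0.19 to 0.20 (median -0.025, 1 of 36 pairs above 0.1). The sources used here do not say that a letter marks an experiment, so the letters were not used to pair samples in the main model. With the letter as replicate block 1, 0, 1, 0, 2 and 0 caspases were called in F1, F2 and F3 vs AL, F2 vs F1, F3 vs F2 and F3 vs F1, as without it, and of the named pathway calls only *Card19* at day 1 was lost (adjusted p = 0.0633, edgeR).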
